A study of Mus musculus with 7 samples.

Results

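A set of 10 genes of the signals that wake muscle stem cells were followed here: the ligand Hgf and its receptor Met, the fibroblast growth factors Fgf2 and Fgf7, the receptors Fgfr1 and Fgfr4, and the syndecans Sdc1, Sdc2, Sdc3 and Sdc4. They were chosen by symbol, and all 10 were found among the 23930 genes of the deposited table. RNA came from mouse cells carrying the Pax7-GFP reporter, sorted from the hind leg muscles of 3 normocapnia (NC) and 4 hypercapnia (HC) animals or groups of animals, 1 library each. Hypercapnia is an excess of CO2 in the blood, produced here by breathing CO2-enriched air, while NC mice stayed in room air. All mice were C57BL/6 carriers of an inducible reporter (Pax7-Cre +/-, Lox-GFP +/+), in which Cre made from the Pax7 gene turns on GFP after tamoxifen. Cells that later lose Pax7 remain green, as do their progeny. Every mouse received tamoxifen from 12 weeks of age, was held in NC or HC for 4 weeks and was collected at 16 weeks. According to the study's methods the muscle had been injured before collection with cardiotoxin, a snake venom toxin, whereas the title of the deposited table gives a time in hours that this description does not mention, and the conflict was not resolved. The labels do not say how many animals stand behind a library, so p-values measure the spread between these libraries.

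Satellite cells lie quiescent beside the myofiber. After injury, proteases cut the inactive precursor of hepatocyte growth factor (HGF) held in the matrix, and active HGF binds the receptor tyrosine kinase Met and brings the cells into the cell cycle. FGF2, also stored in the matrix, signals through FGFR1 and FGFR4, of which FGFR4 is typical of the myogenic lineage, whereas FGF7 is made by mesenchymal cells and acts mainly on epithelia. Syndecans are membrane proteoglycans whose heparan sulfate chains hold HGF and FGF close to their receptors. Syndecan-3 and syndecan-4 are known from satellite cells, and syndecan-1 also from plasma cells and epithelia. Both pathways run through adaptors such as GAB1 and GRB2 into RAS and ERK.

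Values are RPM, the reads of a gene scaled so that every library has the same total. The AmpliSeq panel amplifies 1 short piece per gene, so a level was compared between libraries and not between genes. Depth was 14527445 to 23388710 reads, so 1 read was worth 0.0428 to 0.0688 RPM. Differences are HC minus NC on log2(RPM + 1), fitted with limma, which steadies the variance of each gene with that of all others. A gene was called at an unadjusted p under 0.05 with a fold above 1.5, the thresholds the study used. At these thresholds 1.14% of all genes were called lower and 1.43% called higher in HC, and 0 genes passed after adjustment over all genes (lowest adjusted p 0.351 in limma, with 1114 genes at an unadjusted p under 0.05). DESeq2 on recovered reads had 29 genes after adjustment and edgeR had 0.

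The RNA of marker genes for different cell types varied widely between the libraries of both groups. Throughout, levels are listed in the order NC1 to NC3 and then HC1 to HC4. Pax7 was 268, 8.25 and 4.34 RPM in NC and 21.5, 20.1, 79.5 and 59.7 RPM in HC. The summed level of 14 satellite and myogenic markers ran from 173 to 4383 RPM in NC and from 460 to 1469 RPM in HC, and 0 of the 14 were called. Myog, the regulator of differentiation, was 871 RPM in NC1 and 0.138 RPM in NC3. Macrophage markers took more reads, and 12 of them summed to 12297 to 35046 RPM in NC and 20132 to 25062 RPM in HC, with Adgre1, the F4/80 antigen, called higher (1 of 12). Fibro-adipogenic markers summed to 1571 to 3567 RPM in NC and 1588 to 3776 RPM in HC, endothelial markers to 91.3 to 256 RPM and 62.1 to 597 RPM. Over all libraries myofiber markers summed to 272 to 5026 RPM, pericyte and smooth muscle markers to 123 to 1772 RPM, neutrophil markers to 65.4 to 294 RPM, Schwann and tendon markers to 34.8 to 228 RPM and lymphocyte markers to 10.7 to 22.3 RPM. Of these lists Cspg4, a pericyte marker named after its value was seen, was the only gene called, higher in HC. Of the defining markers Cd3e of T cells stayed at or below 0.892 RPM and Sox10 of Schwann cells at or below 2.50 RPM. NC1, NC2, HC1 and HC2 contained Xist (445 to 701 RPM), whereas NC3, HC3 and HC4 contained Y-linked transcripts instead. NC3 is the sole NC library with Y-linked transcripts, and its profile correlated least with the others (0.827 to 0.883 on log2 values over genes averaging at least 1 RPM). In sorted bulk RNA, fewer cells of a type and less RNA per cell cannot be told apart.

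Among the 10 genes, Fgf2 was the only one called, lower in HC. Fgf7 was below every NC library in all 4 HC libraries as well, by a margin that did not pass the test. Met, Fgfr4, Sdc1 and Sdc2 spread the most within NC. For these, and also for Hgf, Fgfr1, Sdc3 and Sdc4, the group difference was smaller than the distance from the lowest to the highest NC library. Of the 10 genes 1 was called lower (10%, beside 1.14% of all genes) and 0 higher. All 10 averaged at least 1 RPM, and of the 12504 genes at that level 262 were called lower. Among the 10, 5 lay above and 5 below no change. Their median difference was -0.18, beside 0.16 for the genes averaging at least 1 RPM. NC1 or NC3 held an end of the range for 9 of the 10, Sdc4 being the exception.

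**Figure D1:**
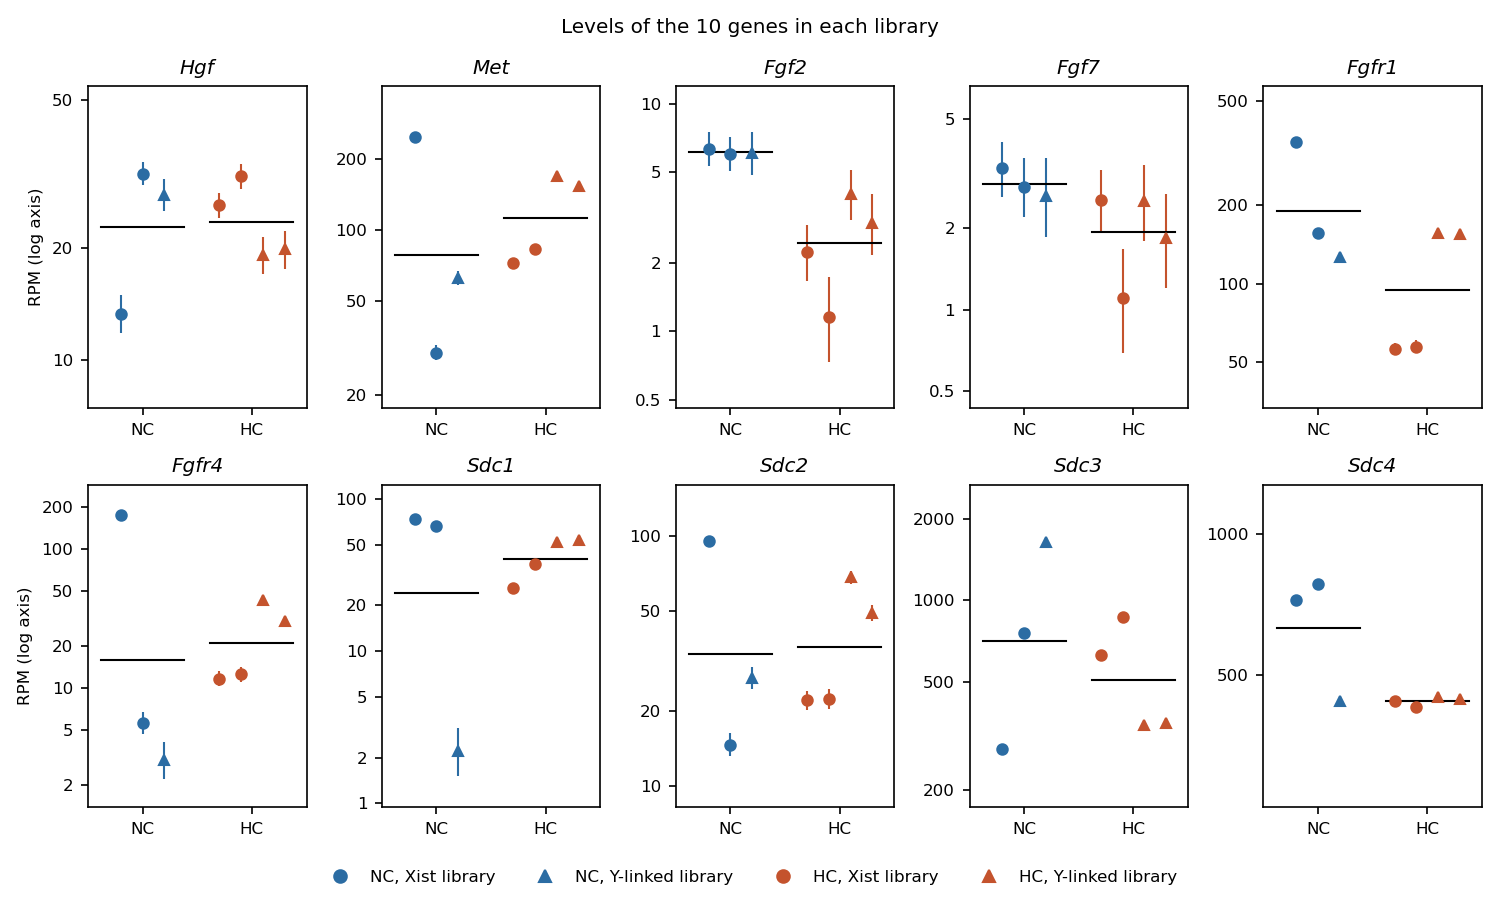
Level of each of the 10 genes in the 7 libraries (RPM, log axis), with NC in blue and HC in red. Circles are libraries with Xist and triangles libraries with Y-linked transcripts, bars are 95% Poisson intervals that cover counting error only, and black lines are group means of log2(RPM + 1) returned to RPM. The groups are apart for Fgf2 (NC 6.03 to 6.33, HC 1.16 to 4.00) and Fgf7, while NC1 stands far above the others for Fgfr4 (175) and NC3 far below them for Sdc1 (2.20).

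Neither gene of the HGF arm was called. Hgf was 13.3, 31.6 and 27.7 RPM in NC and 26.0, 31.1, 19.1 and 19.8 RPM in HC. The HC values all lay within the NC range, whose lowest point was NC1. The difference was 0.05 (SE 0.35, 95% interval -0.82 to 0.91), so any difference inside that interval remains compatible with these libraries. Median-of-ratios scaling put Hgf at -0.10 instead.

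Met was 248, 30.2 and 62.6 RPM in NC and 72.4, 83.4, 170 and 153 RPM in HC. NC1 was the highest and NC2 the lowest library of all. The limma difference was 0.52 (SE 0.78, interval -1.43 to 2.46, unadjusted p = 0.535). It was 0.12 in edgeR with a filter and 0.07 in DESeq2. Without NC1 it was 1.34 (limma, unadjusted p = 0.0558) and without NC2 -0.15, and Met was called in none of these.

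Met followed the satellite markers. A satellite score, the mean log2(RPM + 1) of the 14 markers, was 7.31, 3.43 and 2.68 in NC and 4.32, 4.21, 5.93 and 5.50 in HC. Over these 7 libraries Met correlated with it at a Pearson r of 0.90 (Spearman rho 0.93), and Hgf at -0.92 (rho -0.89). These are descriptions over libraries that differ in depth and in the level of marker genes, and no p is attached to them.

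Fgf2 fell in HC. It was 6.33, 6.03 and 6.06 RPM in NC1 to NC3, a mean of 6.14 ± 0.17 (SD, n = 3), and 2.23, 1.16, 4.00 and 2.98 RPM in HC, a mean of 2.59 ± 1.20 (SD, n = 4). All HC libraries lay under all NC libraries, and Fgf2 was the steadiest of the 10 genes within NC, with a highest value only 1.05 times the lowest. The 95% Poisson intervals of the NC libraries ran from 4.86 to 7.47 RPM, wider than the spread of their values. No trait of the gene is therefore drawn from this steadiness. In reads these levels are 142, 141 and 88 in NC and 52, 23, 64 and 44 in HC. Counting error alone lets the groups meet, since the 95% Poisson interval of HC3 reached 5.11 RPM. Those of NC2 and NC3 began at 5.07 and 4.86 RPM.

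The fitted difference of Fgf2 was -1.06 (SE 0.29, 95% interval -1.78 to -0.33, unadjusted p = 0.0126, adjusted p = 0.877 in limma), so it was called at the unadjusted threshold and did not pass after adjustment. On recovered reads it was -1.41 in edgeR (unadjusted p = 0.0209) and -1.46 in DESeq2 (unadjusted p = 0.00281, adjusted p = 0.252). Fgf2 kept its call in 17 of 18 alternatives and lost it with a pseudocount of 5 RPM, close to its own level, where the difference was -0.57. With the satellite score as a term it was -1.11, and with the Xist and Y-linked sets as a term -1.13. Over all 7 libraries the score and Fgf2 had an r of 0.07, and without NC1 an r of -0.36. Within HC, however, Fgf2 was higher in each library with a higher score, from HC2 through HC1 and HC4 to HC3, and the part of cell content in its level was not tested. A macrophage score made in the same way from 12 markers ran against Fgf2 (r = -0.59), and its part in the difference was not tested. Within the Xist libraries the difference was -1.44, within the Y-linked libraries -0.66.

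Fgf7 ran in the same direction at a lower level. It was 3.30, 2.82 and 2.62 RPM in NC and 2.53, 1.11, 2.50 and 1.83 RPM in HC, from 22 to 74 reads. The groups did not overlap, but HC1 and HC3 lay just under NC3. Its difference was -0.41 (SE 0.21, interval -0.93 to 0.10, unadjusted p = 0.0944 in limma) and was called under none of the 18 alternatives. Fgf2 and Fgf7 were the 2 of 10 genes with HC below NC throughout, beside 3.63% of the genes averaging at least 1 RPM. They were also the 2 that were lower in both sex sets, which follows from the groups not overlapping and adds nothing to it.

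The FGF receptors depended on NC1. Fgfr1, the broadly expressed receptor, was 348, 155 and 126 RPM in NC and 56.3, 57.4, 156 and 155 RPM in HC. HC1 and HC2 were less than the lowest NC library, whereas HC3 and HC4 matched NC2. The limma difference was -1.002 (SE 0.59, interval -2.47 to 0.46, unadjusted p = 0.142) and Fgfr1 was not called. It was called lower with median-of-ratios scaling (-1.14), in edgeR (-1.02), in DESeq2 (-1.07) and with the satellite score as a term (-1.21). Under the first of these scalings the median of the genes averaging at least 1 RPM moved from 0.16 to 0.04. The share of genes called lower in the count tools was 3.82% in edgeR and 3.76% in DESeq2. Without NC1 the limma difference of Fgfr1 was -0.57 and was not called.

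Fgfr4, the receptor typical of myogenic cells, spread the most of all 10 genes. It was 175, 5.60 and 3.03 RPM in NC and 11.6, 12.5, 43.2 and 30.1 RPM in HC. NC1 was above every HC library and the other NC libraries were under every one, so the NC mean of 61.2 ± 98.5 (SD, n = 3) describes no library of that group. The HC mean was 24.4 ± 15.2 (SD, n = 4). The difference was 0.40 with an interval of -3.23 to 4.02 (SE 1.45, unadjusted p = 0.795 in limma), and its sign turned in edgeR (-1.12) and DESeq2 (-1.15). Without NC1 Fgfr4 was called higher in HC by 2.09 (limma, unadjusted p = 0.0293, adjusted p = 0.371).

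The level of Fgfr4 ran with the satellite score almost library by library (r = 0.996, rho 0.96, and r = 0.998 without NC1). Pax7 was the second most alike of 8228 genes that averaged at least 10 RPM (r = 0.996), after Grb10 (r = 0.999) and ahead of Cobl (r = 0.995). With the satellite score as a term, the HC difference of Fgfr4 was -0.21.

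**Figure D2:**
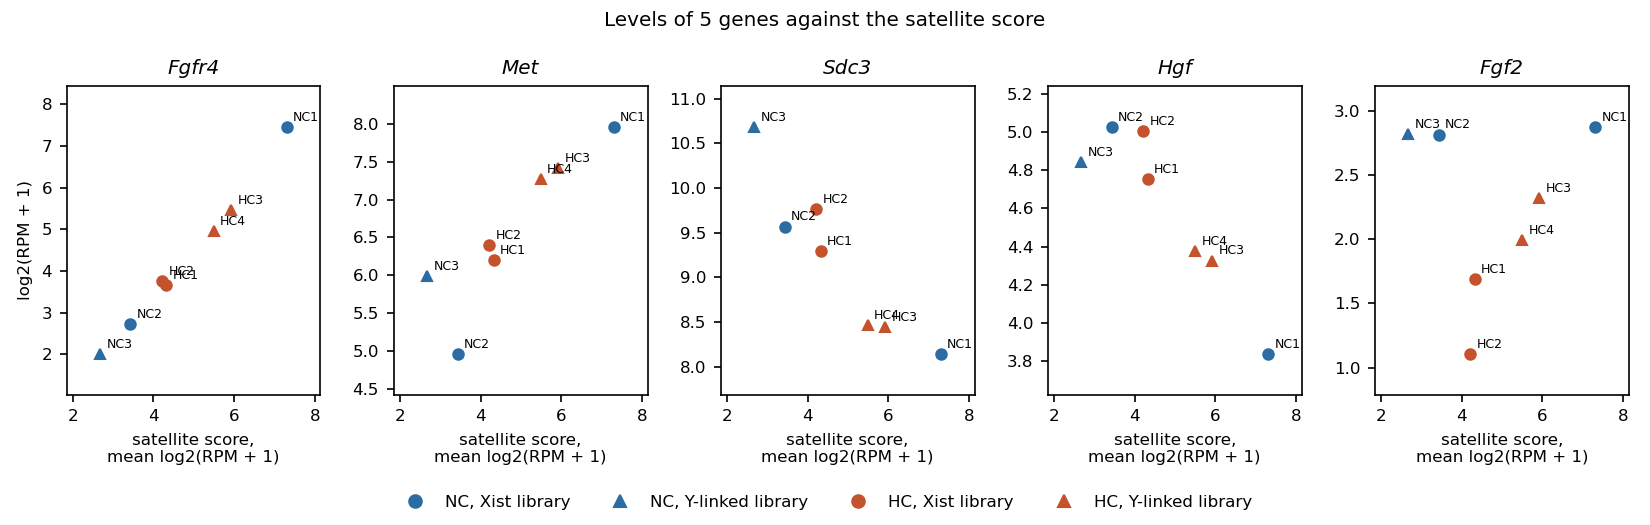
Level of 5 of the genes on log2(RPM + 1) against the satellite score, the mean log2(RPM + 1) of 14 satellite and myogenic markers, in the 7 libraries. Fgfr4 and Met climb from NC3 and NC2 to NC1, Sdc3 and Hgf descend, and the 3 NC points of Fgf2 lie above the 4 HC points, which climb with the score.

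The syndecans parted into different patterns, and none of the 4 was called in limma. Sdc4 showed the clearest one: 723, 781 and 441 RPM in NC and 441, 429, 449.6 and 445 RPM in HC. The 4 HC libraries were nearly equal, with a mean of 441 ± 8.98 (SD, n = 4), against 648 ± 182 (SD, n = 3) in NC. NC1 and NC2 were above them and NC3 was among them. The difference was -0.51 (SE 0.21, interval -1.03 to 0.0031, unadjusted p = 0.0510, adjusted p = 0.915 in limma), under the 1.5-fold threshold.

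The call of Sdc4 turned on the scaling and on NC3. It was called lower with median-of-ratios scaling (-0.66, unadjusted p = 0.00235 in limma), in edgeR with a filter (-0.63) and in DESeq2 (-0.67, adjusted p = 0.305), but not in edgeR without a filter (-0.62). Without NC3 it was called at -0.77, with an adjusted p of 0.0721 in limma.

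Sdc3 was 282, 758 and 1643 RPM in NC and 628, 867, 347 and 351 RPM in HC. NC1 was the lowest library and NC3 the highest. Its difference was -0.47 (SE 0.69, interval -2.20 to 1.25, unadjusted p = 0.520 in limma). Sdc3 ran opposite to the satellite score (r = -0.94, rho -0.96), and with the score as a term its difference was -0.20. In the count tools it was larger, at -0.94 in edgeR without a filter and -1.06 in DESeq2, and Sdc3 was called in none of these.

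Sdc1 was 73.4, 66.2 and 2.20 RPM in NC and 25.9, 37.2, 51.9 and 53.6 RPM in HC. NC3, with 32 reads, stood apart from the other 6 libraries, which all lay between 25.9 and 73.4 RPM. The limma difference of 0.72 (SE 1.22, interval -2.32 to 3.76, unadjusted p = 0.577) became -0.77 without NC3 and was called in neither.

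Sdc2 was 96.0, 14.7 and 27.1 RPM in NC and 22.0, 22.4, 68.5 and 49.4 RPM in HC, with NC1 highest and NC2 lowest. Its difference was 0.09 (SE 0.77, interval -1.83 to 1.998, unadjusted p = 0.915 in limma) and turned its sign under 12 of 18 alternatives. Sdc2 rose and fell with Met (r = 0.96) and with the satellite score (r = 0.89).

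Both groups contained libraries with Xist and with Y-linked transcripts, so each difference was also taken within these sets, as values with no test. Between the sets 8 of the 10 genes had opposite signs, 1 of them being Sdc4, whose difference among the Y-linked libraries was 0.02 and close to no change. Among the Xist libraries Fgfr1 differed by -2.01, Fgfr4 by -1.38, Sdc1 by -1.14, Sdc4 by -0.79 and Sdc2 by -0.75, while Sdc3 differed by 0.67 and Hgf by 0.45. Among the Y-linked libraries, where NC3 alone stands for NC, Sdc1 differed by 4.07, Fgfr4 by 3.20, Met by 1.35 and Sdc2 by 1.08, and Sdc3 by -2.23.

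An interaction of condition with set, fitted in limma, gives the gap between these differences, Y-linked minus Xist. It was 5.21 for Sdc1, 0.81 for Sdc4, 2.32 for Fgfr1 and -2.90 for Sdc3. NC3 is the only library in its cell of the design, so the fit takes all of its spread from the other libraries. Each gap joins the distance of NC3 from NC1 and NC2 to that of HC3 and HC4 from HC1 and HC2. For Sdc1 and Sdc4 it follows NC3, whereas for Fgfr1 NC3 (126 RPM) lay near NC2 (155 RPM) and HC1 and HC2 (56.3 and 57.4 RPM) lay well under HC3 and HC4 (156 and 155 RPM). An unadjusted p under 0.05 in limma, reached by these 4 of 10 genes, was reached by 21.2% of all genes (3.2% after adjustment), and no difference between the sets is drawn from it. Sex of the animals and whatever else set NC3 apart cannot be told apart in this design.

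**Figure D3:**
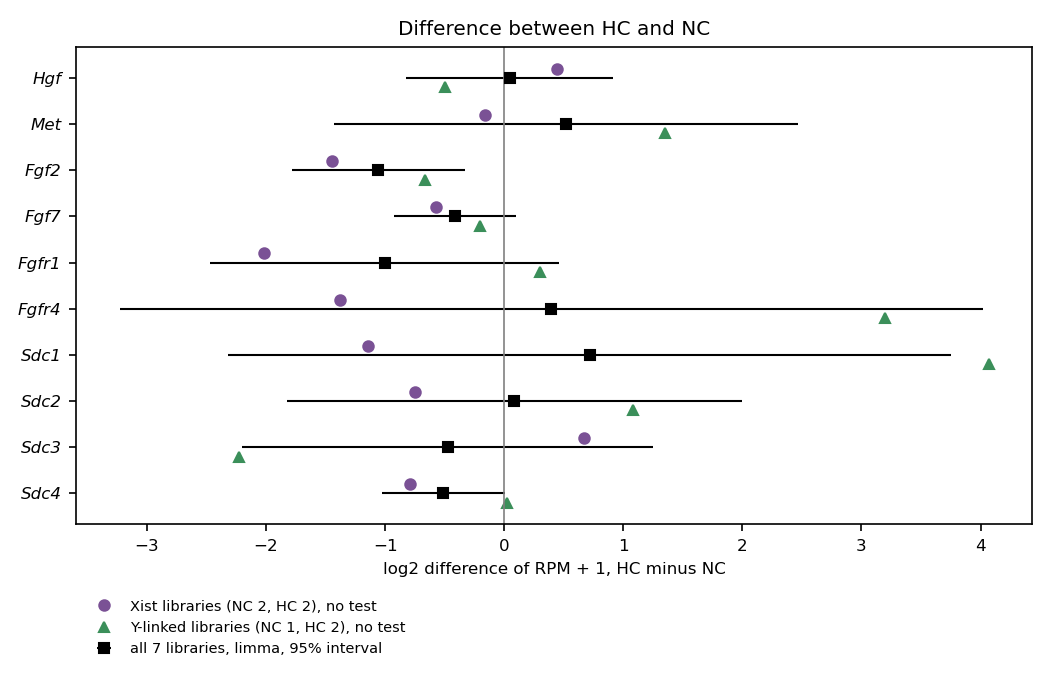
Difference HC minus NC of each gene on log2(RPM + 1). Black squares are the limma estimates over all 7 libraries with 95% intervals, purple circles the differences within the Xist libraries and green triangles those within the Y-linked libraries, neither with a test. The interval of Fgf2 (-1.78 to -0.33) alone lies wholly below 0, and circles and triangles fall on opposite sides of 0 for 8 genes, for Sdc4 only just.

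The other genes of the pathways were taken from 9 lists, of which 120 of 128 genes were in the table. In these lists 4 genes were called lower and 3 higher (5.83% in both directions together, beside 2.57% of all genes and 4.75% of those averaging at least 1 RPM), 0 passed after adjustment, and the median difference was 0.00. The lists were written with earlier results on these libraries known.

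Of the adaptors that carry Met and FGF receptor signals inward, Gab1 and Crkl were called lower in HC. Gab1, the docking protein that binds active Met, was 65.3, 102 and 94.8 RPM in NC and 49.4, 54.8, 50.3 and 45.1 RPM in HC. The groups were apart and the HC libraries lay close together. Its difference was -0.77 (SE 0.17, unadjusted p = 0.00468, adjusted p = 0.729 in limma) and its call held under all 18 alternatives.

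Crkl, an adaptor that binds GAB1, was 33.6, 21.0 and 31.5 RPM in NC and 16.9, 16.8, 20.5 and 18.4 RPM in HC. NC2 and HC3 were nearly equal. Its difference was -0.61 (SE 0.18, unadjusted p = 0.0164 in limma), and the call was lost under 6 alternatives, without NC1 and without NC3 among them. These 2 were the called genes of 12 adaptors.

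Grb2, the adaptor with the most reads and the link to RAS, was 364, 497 and 57.6 RPM in NC and 584, 684, 558 and 535 RPM in HC. The groups were apart with HC higher, and the difference of 1.42 (SE 0.77, unadjusted p = 0.120 in limma) was not called. It rested largely on the low value of NC3, without which it was 0.47 (limma, unadjusted p = 0.0458), under the 1.5-fold threshold.

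Plau and Hpse, enzymes that act around the ligands, were called higher in HC. Plau, urokinase, which can cut HGF into its active form, was 352, 336 and 255 RPM in NC and 725, 567, 399.9 and 466 RPM in HC, with the groups apart (0.76, SE 0.24, unadjusted p = 0.0216 in limma). Its call was lost under 6 alternatives, median-of-ratios scaling and both count tools among them, at differences of 0.60 or more throughout. Plau was the 1 called gene of 11 in the list of HGF activation and the Met family. Its receptor Plaur was 324, 1046 and 183 RPM in NC and 449 to 477 RPM in HC (0.22, SE 0.59, not called). Urokinase is also made by macrophages, whose markers were abundant in every library, and their part in this difference was not tested.

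Hpse, heparanase, which cuts heparan sulfate chains, was 31.6, 31.4 and 39.5 RPM in NC and 111.9, 104, 63.0 and 52.0 RPM in HC. The groups were apart, and HC1 and HC2 were the highest. Its difference was 1.19 (SE 0.31, unadjusted p = 0.0105, adjusted p = 0.836 in limma), and the call was lost with median-of-ratios scaling alone (1.04). Of the 12 macrophage markers, 8 lay above and 4 below no change. Adgre1 was called higher, with 109.01, 149 and 70.5 RPM in NC and 392, 429, 151 and 184 RPM in HC, whereas Lyz2, which encodes lysozyme, differed by -0.01 and the sum of the 12 markers was highest in NC3. The part of macrophages in the difference of Hpse was not tested. Hpse was the 1 called gene of 25 enzymes that build or edit heparan sulfate. The one with the most reads, the sulfotransferase Ndst2, was 48.6, 87.0 and 32.7 RPM in NC and 65.4 to 84.8 RPM in HC (0.59, SE 0.34, not called).

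**Figure D4:**
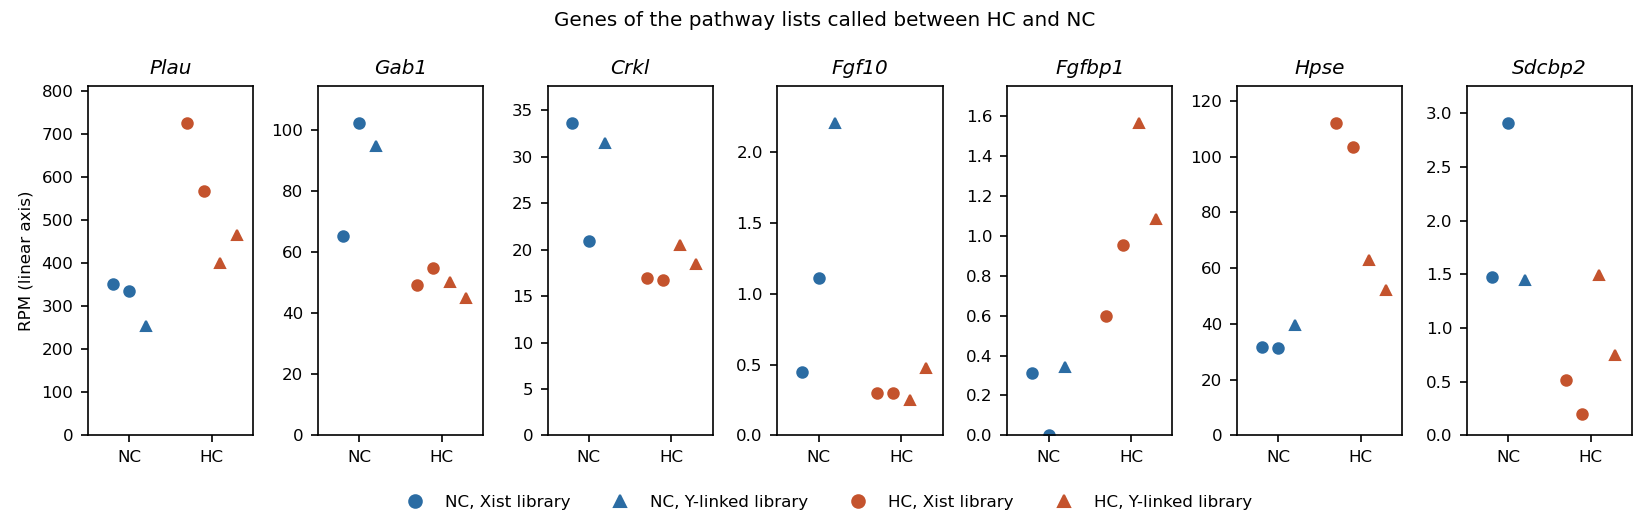
Levels of the 7 called genes of the pathway lists in each library (RPM, linear axes that start at 0), NC in blue and HC in red. Gab1 (HC 45.1 to 54.8) and Crkl sit lower in HC, Plau (HC 399.9 to 725) and Hpse sit higher, and Fgf10, Fgfbp1 and Sdcbp2 stay below 3 RPM.

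The remaining called genes rested on few reads. The calls of Sdcbp2 and Fgf10 were unstable, lost under 14 of 18 alternatives and under 11 of the 16 that gave a value. Fgfbp1 kept its call under 13 of the 17 that gave a value and lost it under 4. Without NC3 the difference of Fgf10 was -0.40. Their levels are near the pseudocount of 1 RPM, which shrinks a difference: in DESeq2 it was -2.28 for Fgf10, 2.10 for Fgfbp1 and -1.61 for Sdcbp2, and with a pseudocount of 0.1 RPM it was -1.44, 2.06 and -1.46. Fgf10, a mesenchymal ligand, had 10, 26 and 32 reads in NC and 7, 6, 4 and 7 reads in HC (-0.69, SE 0.27, unadjusted p = 0.0474 in limma), but HC4 at 0.474 RPM overlapped NC1 at 0.446 RPM. Fgfbp1, a carrier that frees FGFs from the matrix, had 7, 0 and 5 reads in NC and 14 to 25 reads in HC (0.74, SE 0.19, unadjusted p = 0.00973 in limma). Sdcbp2, which holds the PDZ domains that bind syndecan tails, was 1.45 to 2.91 RPM in NC and 0.201 to 1.499 RPM in HC (-0.77, SE 0.31, unadjusted p = 0.0481 in limma). Its paralog Sdcbp, syntenin, was 792 to 2409 RPM and was not called (0.28, SE 0.39).

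Among 19 other FGF ligands 1 was called, and among 6 other receptors and co-receptors 1. Those with the most reads, Fgf11 (1.28 to 22.3 RPM) and Fgfr3 (0.385 to 4.25 RPM), were not called. Of 8 other heparan sulfate proteoglycans 0 were called, and Gpc1, a glypican and the one with the most reads, ran from 15.4 RPM in NC3 to 526 RPM in NC1.

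Downstream, 0 of 13 genes of the RAS-ERK cascade were called. Nras and Araf, picked out after their values were seen, lay lower in every HC library than in every NC library (-0.45 for both, unadjusted p = 0.0159 and 0.0138 in limma), with folds under 1.5. Of 15 genes that ERK induces, feedback inhibitors such as Spry2 and Dusp6 included, 0 were called, 8 lay above and 7 below no change, and the median difference was 0.01. Fos, with the most reads, was 2552, 4114 and 1784 RPM in NC and 2498 to 2890 RPM in HC (0.05, SE 0.28).

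**Figure D5:**
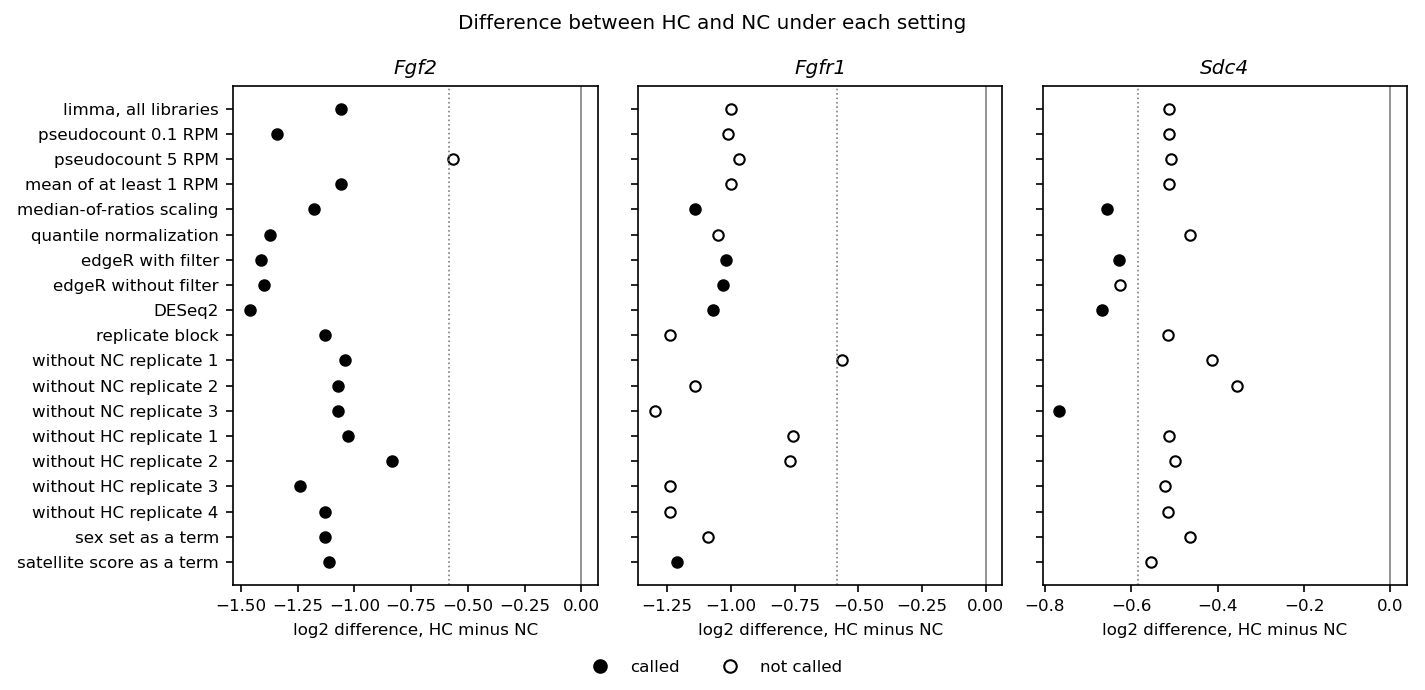
Difference HC minus NC on the log2 scale for Fgf2, Fgfr1 and Sdc4 in limma with all libraries and under 18 alternatives. Filled points were called and open points were not, and dotted lines mark the 1.5-fold threshold. Fgf2 is filled under all but the pseudocount of 5 RPM, whereas Fgfr1 and Sdc4 are filled under 5 and 4 alternatives.

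Apart from Fgfr4, the genes whose levels ran most like those of the 10 were no members of these pathways, with a Pearson r over 7 libraries and about 8228 genes compared. Nearest to Fgf2 was Ing3 (0.98), to Hgf Snx30 (0.995), to Met Msh6 (0.997), to Fgfr1 Ybx3 (0.99), to Sdc1 Kdm3b (0.996), to Sdc2 Col8a1 (0.995), to Sdc3 Fam175b (0.99), to Sdc4 Wsb1 (0.97) and to Fgf7 Pros1 (0.92). These values are descriptions with no p.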

How the data were processed

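Per the labels and the study's methods, the authors sorted Pax7-GFP cells, isolated RNA, prepared AmpliSeq libraries with an Ion Chef, sequenced these on an Ion GeneStudio S5 Plus and deposited RPM values, reads scaled to one library total. Their processing notes name the Transcriptome Analysis Console. Coordinates are left out because aligner, build and annotation were not given in the sources used here. Groups came from the sample labels. Whole reads were recovered from the RPM steps (100% of values whole within 0.05 reads). A value of 3 reads corresponds to 0.128 to 0.207 RPM, and intervals cover counting error only.

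Differences of log2(RPM + 1) were fitted over 23930 genes, unfiltered, using limma 3.58.1 (R 4.3.3), called at an unadjusted p under 0.05 and a fold above 1.5, and adjusted by Benjamini-Hochberg over all genes. Alternatives were pseudocounts of 0.1 and 5 RPM, keeping genes that averaged 1 RPM, median-of-ratios and quantile scaling, edgeR 4.0.16 (quasi-likelihood, with and without filter), DESeq2 1.42.0, the replicate number as a block and leaving out each library. The fits with the sex set or satellite score as a term, the values within sets and the interaction were added after values were seen. The limma, edgeR and DESeq2 fits were tested on simulated data. Named were all 10 genes, the called gene and the one with the most reads in each pathway list, the nearest genes by Pearson correlation, and defining markers. An item that the rule names is left out. The genes and lists were chosen with earlier results of these data known.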

Additional observations from a re-analysis of the deposited data

Results flagged for a closer look

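Genes were flagged by the p of a limma interaction of condition with sex set. Its estimate is the gap between the differences HC minus NC in the 2 sets, Y-linked minus Xist. That gap was 5.21 for Sdc1, 0.81 for Sdc4, 2.32 for Fgfr1 and -2.90 for Sdc3. Among the pathway genes it was 2.65 for Grb2, 2.39 for Fgfr3, -1.22 for Hpse and -1.59 for Sdcbp. NC3 is the sole NC library in the Y-linked set and adds no spread of its own to the fit, so these values do not show that the sets differ. They join the distance of NC3 from NC1 and NC2 to that of HC3 and HC4 from HC1 and HC2, and for Fgfr1, Fgfr3 and Hpse the second of these distances, taken between means of log2(RPM + 1), was the larger. No p is given for a fit with 1 library in a cell of the design.

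Ndst2 was 65.4 RPM in HC3, below the other 3 HC libraries (82.1 to 84.8 RPM), a gap of 0.862 of the whole range of the group. Of 25 groups examined this way chance marks about 1 in 20.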

How the results depend on the processing

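Limits come first. With 3 and 4 libraries, and with an end of the range in NC1 or NC3 for 9 of the 10 genes, intervals were wide for all but Fgf2, Fgf7, Hgf and Sdc4. Fgf2 and Fgf7 (22 to 142 reads) and, still more, Fgf10, Fgfbp1 and Sdcbp2 rest on few reads. Of the 10 genes, Fgf2 kept its direction under all 18 alternatives and its call under 17, whereas Fgf7, Fgfr1 and Sdc4 kept their direction under all 18 but Fgfr1 and Sdc4 gained a call under 5 and 4. The sets and scores added as terms were chosen after values were seen.

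The number of the 10 genes called was 1, and it was 0 with a pseudocount of 5 RPM, 3 with median-of-ratios scaling, 3 in edgeR with a filter, 2 in edgeR without one, 3 in DESeq2, 2 with the satellite score as a term and 1 to 2 on leaving out single libraries. Those called were Fgf2, Fgfr1 and Sdc4 wherever 3 were called, Fgf2 and Fgfr1 in edgeR without a filter and with the satellite score, Fgf2 and Fgfr4 without NC1, and Fgf2 and Sdc4 without NC3. The number over all genes was 615, with 343 higher and 272 lower. It was 1049 in edgeR without a filter (407 higher, 642 lower), 1304 in DESeq2 (519 higher, 785 lower), 1210 with the sex set and 1053 with the satellite score as a term. It ran from 376 without HC2 to 1990 without NC1, and was 385 without HC1 and 1205 without NC2. With edgeR and a filter it was 802 (294 higher, 508 lower), with quantile scaling 693 (336 higher, 357 lower) and without NC3 616 (235 higher, 381 lower). The number over the pathway lists was 7, and it was 3 with a pseudocount of 5 RPM, 3 with the filter at a mean of 1 RPM, 11 with the sex set as a term, and 4 to 20 on leaving out single libraries (20 without NC1, 4 without HC1 or HC2). The cause of these changes was not tested.

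Changes of sign, given as log2 differences, were these. Hgf was -0.098 with median-of-ratios scaling, -0.0388 with quantile scaling, -0.201 and -0.171 in edgeR with and without a filter and -0.244 in DESeq2. In the same order for edgeR with a filter, edgeR without one and DESeq2, Fgfr4 was -1.12, -1.15 and -1.15, Sdc1 -0.0963, -0.132 and -0.121, Sdc2 -0.167, -0.174 and -0.212, Plaur -0.235, -0.25 and -0.261, Fgf11 -0.00512, -0.0303 and -0.0425, Fos -0.122, -0.121 and -0.158, Gpc1 -0.105, -0.145 and -0.144, and Sdcbp -0.117, -0.0701 and -0.169. With median-of-ratios scaling Sdc2 was -0.0529 and Fos -0.0945, and with quantile scaling Sdc2 was -0.0681. With the satellite score as a term Fgfr4 was -0.209 and Sdc2 -0.2, and with the sex set Sdc2 was -0.0179. None of these differences was called on either side, and DESeq2 gave no p for Fgfr4 or Fgf11.

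On leaving out single libraries the difference ran from -0.322 to 0.274 for Hgf, -0.154 to 1.34 for Met, -1.24 to -0.834 for Fgf2, -0.504 to -0.256 for Fgf7, -1.3 to -0.566 for Fgfr1, -0.631 to 2.09 for Fgfr4, -0.769 to 1.5 for Sdc1, -0.493 to 0.822 for Sdc2, -1.14 to 0.135 for Sdc3 and -0.767 to -0.356 for Sdc4. It ran from 0.602 to 0.887 for Plau, -0.336 to 0.916 for Plaur, -0.969 to -0.651 for Gab1, -0.813 to -0.485 for Crkl, 0.465 to 2.01 for Grb2 (lowest without NC3), -0.969 to -0.395 for Fgf10, 0.606 to 0.855 for Fgfbp1, -0.965 to -0.551 for Sdcbp2, -0.671 to -0.0308 for Fgfr3, 0.266 to 0.959 for Ndst2, 0.066 to 1.74 for Fgf11, -0.238 to 0.365 for Fos, 1.02 to 1.38 for Hpse, -0.124 to 2.38 for Gpc1 and -0.128 to 0.673 for Sdcbp.

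NC1 to NC3 share numbers with HC1 to HC3, but deviations of same-numbered libraries correlated at -0.349, 0.503 and -0.0443 over 12504 genes, so the numbers were not taken to pair them. HC1 and HC2 both correlated best with NC2, and HC3 with NC1. With the replicate block, which leaves HC4 without a partner and so without weight, 1 of the 10 genes was called (Fgf2, -1.13), 598 genes in all and 8 in the pathway lists, and Sdc2 was -0.0624.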
